A study of Mus musculus with 24 samples.

Results

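Metabotropic glutamate receptors are G protein-coupled receptors for glutamate, and 6 of their genes, Grm2, Grm3, Grm4, Grm5, Grm7 and Grm8, were followed here through every cell type of the mouse ventral hippocampus and between 2 inbred strains. The members were chosen by gene family, as 6 of the 33902 gene symbols in a table of single-nucleus RNA sequencing (snRNA-seq) counts. In astrocytes Grm3 was higher in DBA/2J than in C57BL/6J, while it was lower or did not pass the test in the other 16 cell types. Grm5 and Grm7 were lower in DBA/2J oligodendrocytes, and Grm4, Grm5 and Grm7 were lower in DBA/2J neurons of the type named Exc-ENT.

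The family is divided by the G protein that each receptor engages. Group I receptors, represented here by Grm5, act through Gq and phospholipase C to release calcium from internal stores, and in the hippocampus they sit mainly around the postsynaptic density. Group II receptors, Grm2 and Grm3, and group III receptors, Grm4, Grm6, Grm7 and Grm8, act through Gi/o proteins and lower cyclic AMP. Those other than Grm6 reduce transmitter release from presynaptic terminals. Grm3 and Grm5 are also the receptors of the family best known from astrocytes, and Grm6 is known mainly from the retina.

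The animals were adult males of C57BL/6J (B6, labelled BL6), the strain of the mouse reference genome, and of DBA/2J (D2, labelled DBA), with no other genotype or treatment. They were 10 to 16 weeks old, and about 2 animals were combined into each replicate. Each strain gave 2 snRNA-seq libraries and 2 single-nucleus ATAC sequencing (snATAC-seq) libraries, which measure open chromatin, and the tables number these libraries 2 and 3. Nuclei for snRNA-seq were sorted on NeuN, a protein of neuronal nuclei, and remixed at a set share of neurons, whereas nuclei for snATAC-seq were not sorted on NeuN. The unit throughout is CPM, the counts of a gene per 1000000 counts of that cell type in that library, with totals scaled by TMM.

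The genes differ widely in size, and their counts were taken over exons and introns, so levels are compared between cell types of 1 gene and not between genes. On mm10 (GRCm38, GENCODE vM21), Grm5 lies on the plus strand at chr7:87584168-88134907, Grm2 on the minus strand at chr9:106643095-106656082, and Grm3 on the minus strand at chr5:9485541-9725170. Grm4 lies on the minus strand at chr17:27422387-27521403, Grm7 on the plus strand at chr6:110645581-111567230, and Grm8 on the minus strand at chr6:27275119-28135178. These spans run from 13.0 kb for Grm2 to 921.6 kb for Grm7.

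Promoter windows are shown for Grm2, Grm3, Grm7 and Grm8 because a deposited snATAC-seq peak covers each of them whole and the accessibility of these peaks is described further on. The windows come from RefSeq (GRCm38.p6), run from 250 bases before a gene's start to 50 after it, and are printed 5′ to 3′ on the gene's strand. They are chr9:106656060-106656359 (minus), chr5:9725303-9725602 (minus), chr6:110645262-110645561 (plus) and chr6:28135097-28135396 (minus). Capitals mark GGGCGG, the GC box bound by Sp-family factors, on either strand.
Grm2: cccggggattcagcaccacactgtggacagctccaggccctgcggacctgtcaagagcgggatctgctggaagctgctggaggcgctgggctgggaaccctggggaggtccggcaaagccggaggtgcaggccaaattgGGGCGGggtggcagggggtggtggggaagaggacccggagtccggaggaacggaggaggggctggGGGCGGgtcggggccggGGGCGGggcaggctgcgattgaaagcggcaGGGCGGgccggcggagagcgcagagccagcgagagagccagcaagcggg
Grm3: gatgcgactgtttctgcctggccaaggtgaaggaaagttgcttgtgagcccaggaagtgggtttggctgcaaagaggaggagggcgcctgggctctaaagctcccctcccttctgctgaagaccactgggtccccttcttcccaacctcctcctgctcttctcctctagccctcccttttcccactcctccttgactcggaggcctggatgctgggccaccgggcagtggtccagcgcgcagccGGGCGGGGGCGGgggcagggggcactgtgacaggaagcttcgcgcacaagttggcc
Grm7: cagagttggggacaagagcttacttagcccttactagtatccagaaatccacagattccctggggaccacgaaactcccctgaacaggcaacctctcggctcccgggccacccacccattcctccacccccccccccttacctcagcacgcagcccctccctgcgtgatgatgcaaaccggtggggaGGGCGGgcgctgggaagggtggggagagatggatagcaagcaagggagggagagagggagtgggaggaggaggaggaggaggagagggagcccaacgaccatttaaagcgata
Grm8: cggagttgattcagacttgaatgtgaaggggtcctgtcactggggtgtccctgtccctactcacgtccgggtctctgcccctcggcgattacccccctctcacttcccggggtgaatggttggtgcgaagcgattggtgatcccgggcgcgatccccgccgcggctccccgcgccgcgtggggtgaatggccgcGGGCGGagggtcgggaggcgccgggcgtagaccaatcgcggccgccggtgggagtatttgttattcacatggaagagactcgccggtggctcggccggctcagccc

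The GC box occurred 4 times in the Grm2 window, 2 times in the Grm3 window as adjoining copies, and 1 time each in the Grm7 and Grm8 windows. It was found in 35.7% of all 32851 RefSeq promoter windows of this length. The letters TGACGTCA (1.79% of all windows), CACGTG (7.15%) and TATAAA (13.6%), searched on both strands, were not found in these 4 windows. The Grm8 window held 33 CpG dinucleotides, the Grm2 window 22, the Grm3 window 11 and the Grm7 window 10, against a median of 7 over all windows. RefSeq lists a further start of Grm8 whose window lies in the same peak, with 10 CpG and no GC box, and a further start of Grm7 with 15 CpG and 1 GC box. The windows printed are the most upstream ones of these genes. Such matches describe the letters only.

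The 4 snRNA-seq libraries held 6312 to 8707 nuclei and 43048686 to 56452272 counts over 17 cell types. Depth differed far more between cell types than between libraries, from 139713 counts in the D2 library 2 of CR-CR to 11352265 in the B6 library 3 of Exc-DG. Fixed marker lists were highest where the study's names place them in NN-Astro (astrocytes), NN-ODC (oligodendrocytes), NN-OPC (oligodendrocyte precursors), NN-MGC (microglia), NN-VLMC (vascular and leptomeningeal cells), Exc-DG, Exc-CA3, the 3 Exc-CA1 types, Inh-MGE, Inh-CGE and CR-CR (Cajal-Retzius cells). The list for Lamp5 interneurons was higher in CR-CR (684 CPM summed) than in Inh-Lamp5 (479 CPM). These orders are of means over the 4 libraries. The Cajal-Retzius list in CR-CR held 3816 and 4248 CPM in B6 and 2386 and 980 CPM in D2. In D2 library 3 it was higher in Inh-Lamp5, at 1509 CPM. In that library the dentate gyrus list was also higher in CR-CR (430 CPM) than in Exc-DG (325 CPM). No list was set for Exc-ENT, Exc-Gpc6 and Exc-Cdh12, whose Slc17a7, the vesicular glutamate transporter of excitatory neurons, stood at 204 to 320 CPM, so these 3 types keep the study's names.

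The cell types were made by clustering these same nuclei, so levels across them are a description, with no test. The group I receptor Grm5 was a transcript of nearly all neurons. It was highest in Exc-CA1-Fras1, at 3473 and 3329 CPM in B6 and 2989 and 2824 CPM in D2, and in Exc-CA1-Galntl6, at 3238 and 3375 CPM in B6 and 3005 and 2969 CPM in D2. These 2 types of CA1 neurons and Inh-MGE (mean 2860 CPM) overlapped in range, and all of them stood above every other type, of which Exc-DG had the highest mean at 2236 CPM. Among neurons other than CR-CR, Inh-CGE was lowest with a mean of 913 CPM, close to the 1005 CPM of oligodendrocyte precursors, whose range overlapped it. CR-CR and the glial and vascular types other than oligodendrocyte precursors held means of 137 CPM (NN-VLMC) to 288 CPM (CR-CR).

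Of the group II receptors, Grm2 was a transcript of few cell types. It was highest in Exc-Gpc6, at 39.9 and 36.8 CPM in B6 and 55.6 and 62.3 CPM in D2, then in Exc-Cdh12 with a mean of 38.3 CPM and in Exc-DG with a mean of 24.6 CPM. The granule cells of Exc-DG stood clear of every type below them, of which Exc-CA1-Fras1 was nearest at 14.2 CPM. The lowest mean was that of Exc-CA3, the target cells of the granule cell axons, at 1.40 CPM, where the 4 libraries held 5 to 10 counts each. The antisense gene Gm28111 overlaps Grm2, and unless reads were assigned by strand the reads of the pair cannot be told apart.

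Grm3 had its highest levels outside neurons. In NN-Astro it stood at 1158 and 1207 CPM in B6 and 1681 and 1817 CPM in D2, and in NN-ODC at 1352 and 1466 CPM in B6 and 1193 and 1185 CPM in D2. The ranges of these glial types overlapped each other, and both lay above every neuron. Exc-ENT was the highest neuron with a mean of 449 CPM, followed by Exc-Gpc6 at 298 CPM, and the ranges of these 2 types overlapped neither each other nor those of any other type. The other glia were not alike, since oligodendrocyte precursors had a mean of 38.5 CPM and microglia the lowest mean of all, 23.3 CPM. Exc-DG and Exc-CA3 were low among neurons, with means of 48.3 and 42.3 CPM and overlapping ranges.

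Of the group III receptors, Grm4 was highest in 3 excitatory types. Exc-Gpc6 had 37.6 and 37.8 CPM in B6 and 34.7 and 34.3 CPM in D2, and its range overlapped that of Exc-Cdh12 (mean 32.3 CPM), whose range overlapped that of Exc-ENT (mean 28.0 CPM). Inh-CGE followed at 16.5 CPM and lay above all remaining types. In the 5 non-neuronal types and CR-CR the libraries held 0 to 11 counts each, which is too few to compare.

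Grm7, a presynaptic receptor of low glutamate affinity, was highest in Exc-Cdh12, at 2983 and 3147 CPM in B6 and 2710 and 2534 CPM in D2, and in Exc-Gpc6 with a mean of 2762 CPM. The other 6 excitatory types formed a run of overlapping neighbours, from 1787 CPM in Exc-CA1-Galntl6 to 2201 CPM in Exc-CA1-Camk2d. Inhibitory types were lower, and they split apart. Inh-MGE and Inh-CGE had means of 816 and 787 CPM, whereas Inh-Lamp5 had 124 and 115 CPM in B6 and 76.2 and 118 CPM in D2. NN-Astro was the lowest of the 17 types with a mean of 64.0 CPM.

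Grm8 was uneven between related neurons. Exc-ENT had 1061 and 1042 CPM in B6 and 1030 and 945 CPM in D2, and Exc-CA1-Fras1, whose range overlapped it, had a mean of 895 CPM. The other 2 types of CA1 neurons were far lower, with means of 363 CPM in Exc-CA1-Camk2d and 78.6 CPM in Exc-CA1-Galntl6. Exc-Gpc6 stood alone between them at 658 CPM. Libraries of 1 strain could lie far apart for this gene. In Exc-Cdh12 the D2 library 3 held 37.2 CPM where the other 3 held 126 to 163 CPM, and in Exc-CA1-Camk2d the B6 library 2 held 246 CPM where the other 3 held 349 to 461 CPM.

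**Figure D1:**
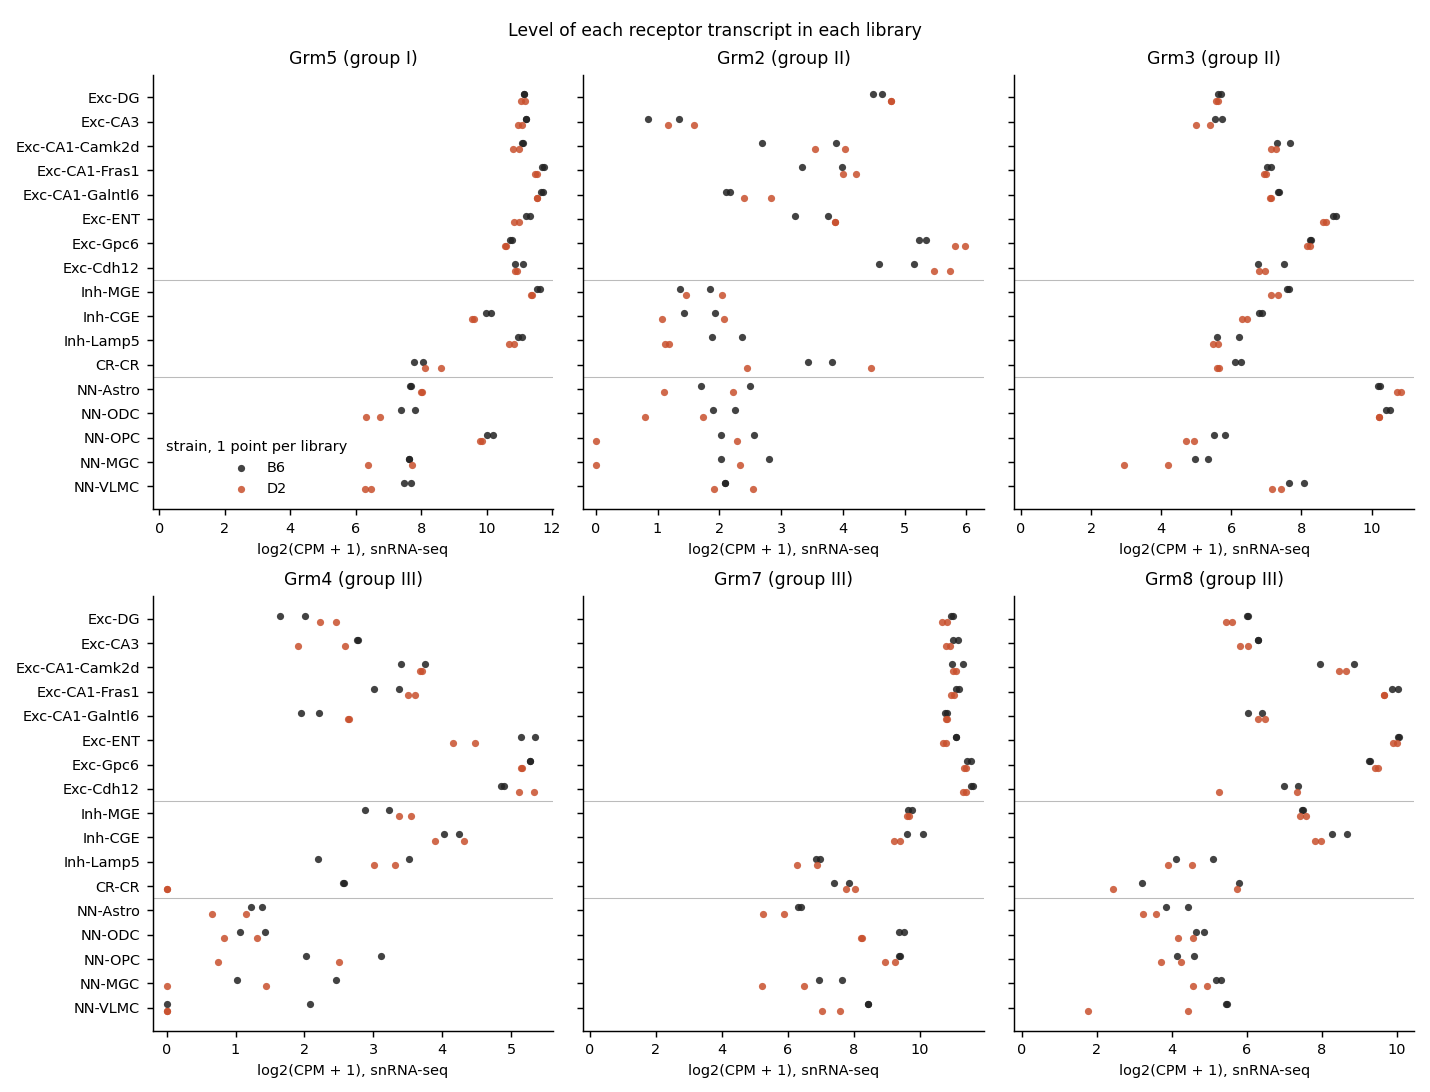
Each panel plots 1 receptor gene, with the 17 cell types down the vertical axis and log2(CPM + 1) of snRNA-seq on the horizontal axis, and each point is 1 library (black B6, orange D2). Grm3 peaks in NN-Astro and NN-ODC, Grm5 and Grm7 are high in nearly all excitatory neurons, and Grm8 separates Exc-CA1-Fras1 from the other CA1 types.

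The comparison of D2 with B6 asks whether the strains express these receptors at different levels in the same cell type. It was tested with edgeR in each cell type alone, with adjustment over all genes tested there, and a call means an adjusted p under 0.05. Of the 102 pairs of a receptor gene and a cell type, 86 passed the filter on low counts, and the 16 that did not were those of Grm2 in 9 and Grm4 in 7 cell types. Of the 86 pairs, 3 were called higher and 28 lower in D2, where over all genes and cell types 12.9% of the tests were called higher and 9.25% lower. The lean of the background depended on the filter. When a gene had to have counts in both strains, calls over all genes went from 28312 to 12664 higher and from 20308 to 16983 lower, and the receptor genes had 3 higher and 25 lower. The pairs of 1 cell type share libraries, and those of 1 gene share animals, so they are not independent. A change in the makeup of a cluster and a change of level per nucleus cannot be told apart in these sums.

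By cell type, Exc-ENT had 4 of 6 tested members lower in D2, where 11.6% of all genes tested were lower. Inh-CGE had 4 of 5 lower (6.02% of all genes), Exc-CA3 3 of 5 (12.9%) and NN-VLMC 3 of 4 (4.76%). In Exc-CA1-Fras1, Exc-CA1-Galntl6 and Exc-DG, 2 of 6 members were lower, where 12.3%, 14.1% and 13.8% of all genes were lower. NN-MGC and NN-ODC each had 2 of 4 members lower, against 5.12% and 8.93% of all genes. A single member was lower in Inh-MGE (1 of 5, against 7.84%) and in NN-OPC (1 of 4, against 7.3%). NN-Astro had 2 of 5 members higher (14.5% of all genes) and 2 lower (11.7%), and Exc-Gpc6 had 1 of 6 higher (10.9%). In CR-CR, Exc-CA1-Camk2d, Exc-Cdh12 and Inh-Lamp5 edgeR called 0 members, where it called 4.26%, 19.4%, 8.44% and 12.1% of all genes. At an unadjusted p under 0.05, 1 member passed in each of CR-CR, Exc-CA1-Camk2d and Exc-Cdh12 and 0 in Inh-Lamp5, and DESeq2 called 0 in all 4.

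Leaving out a library also made calls that the full data did not give. In Exc-CA1-Camk2d, Grm8 was called lower without B6 library 2 (log2 fold change -0.29) and higher without B6 library 3 (0.58), so its direction there rests on those libraries. In the same type Grm3 (-0.46) and Grm7 (-0.23) were called without B6 library 2, and Grm2 (1.22) without B6 library 3. In Exc-Cdh12, Grm8 was called without B6 library 2 (-0.55) or D2 library 2 (-1.94), and Grm3 without B6 library 2 (-0.60). The other gained calls were Grm2 in Exc-CA1-Fras1 (0.86) and Grm5 in NN-OPC (-0.32) without B6 library 2, Grm8 in Exc-CA1-Galntl6 (0.37) without B6 library 3, Grm5 in CR-CR (0.76) and Exc-CA3 (-0.20) without D2 library 2, and Grm5 in NN-MGC (-1.20) and Grm7 in NN-OPC (-0.39) without D2 library 3.

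**Figure D2:**
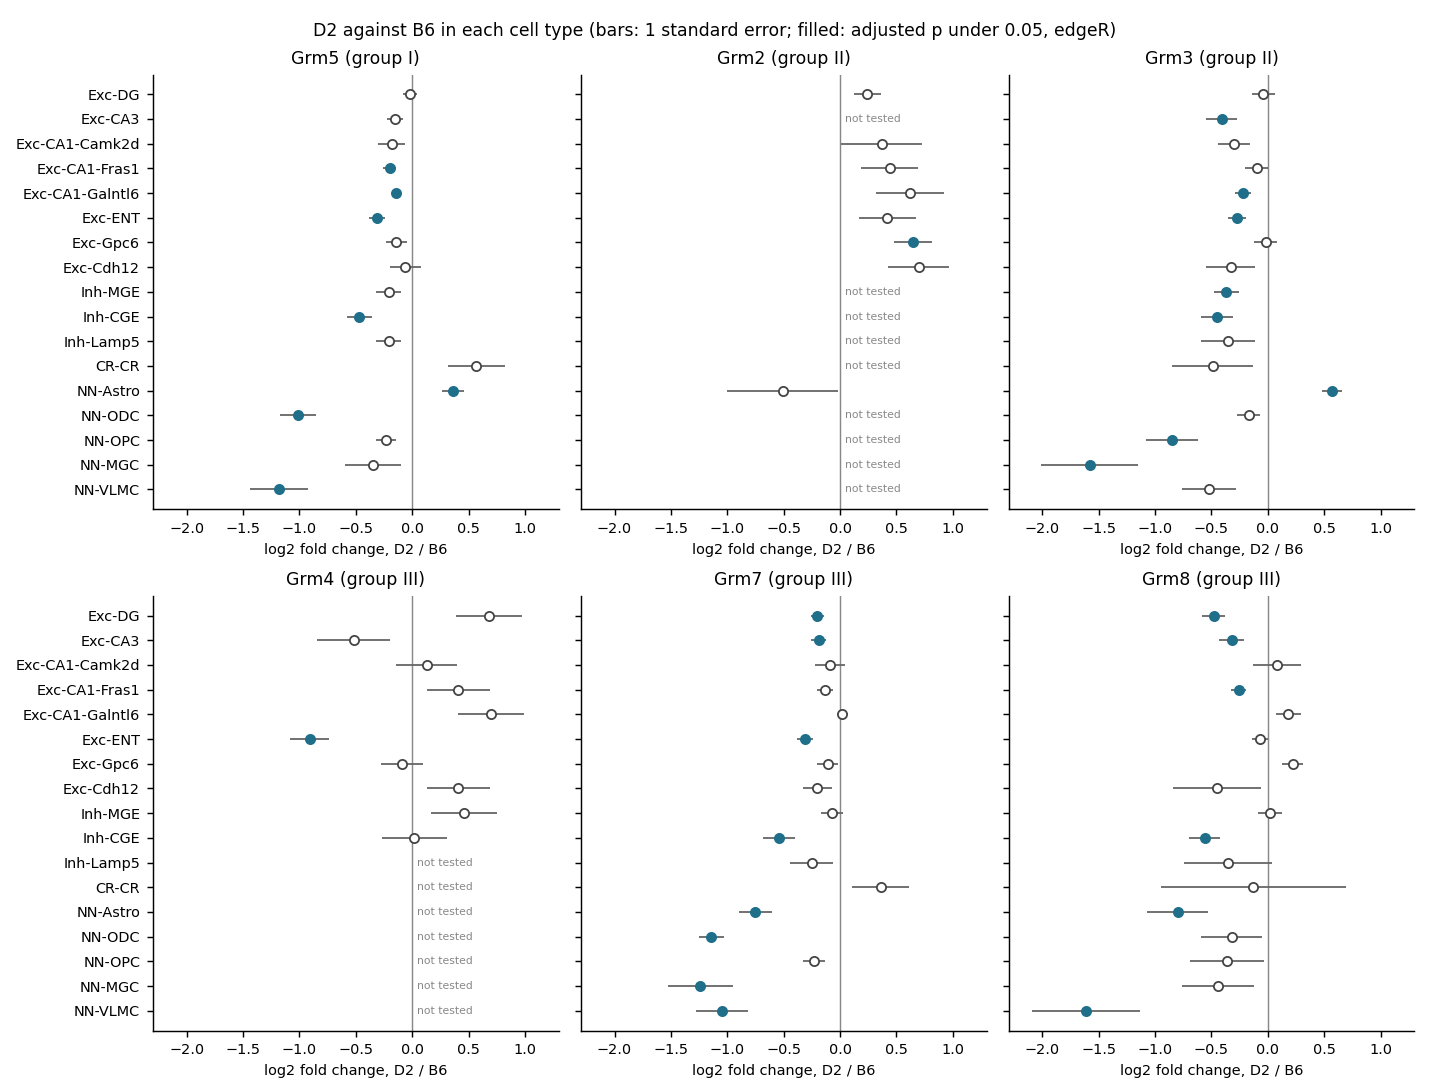
Each panel plots 1 receptor gene, with cell types down the vertical axis and the log2 fold change of D2 over B6 on the horizontal axis, with bars of 1 standard error and filled points for adjusted p under 0.05 in edgeR. Points to the right of 0 that are filled occur for Grm3 and Grm5 in NN-Astro and for Grm2 in Exc-Gpc6, and the other filled points lie to the left.

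Grm5 was called in 7 of 17 cell types. It was higher in D2 only in NN-Astro, where both D2 libraries (262 and 256 CPM) lay above both B6 libraries (204 and 201 CPM), with a log2 fold change of 0.36 ± 0.10 (SE) and an adjusted p = 0.0046. Without D2 library 2 or 3 this call was lost (log2 fold change 0.36 and 0.38, adjusted p = 0.0737 and 0.0585). In NN-ODC the direction was opposite, with 165 and 224 CPM in B6 and 105 and 78.3 CPM in D2. The groups did not overlap, the log2 fold change was -1.01 ± 0.16 (adjusted p = 3.41e-05), and the call was kept in all 10 alternatives. In NN-VLMC the values were 205 and 177 CPM in B6 and 77.1 and 87.5 CPM in D2 (log2 fold change -1.18 ± 0.26, adjusted p = 0.00118), from 36 to 109 counts a library. That call was lost with DESeq2 (adjusted p = 0.152) and without D2 library 2 (log2 fold change -1.03, adjusted p = 0.0588).

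Among neurons, Grm5 was lower in Exc-ENT, at 2339 and 2543 CPM in B6 and 2038 and 1831 CPM in D2. The groups did not overlap and the log2 fold change was -0.31 ± 0.07 (adjusted p = 0.000842), kept in all 10 alternatives. In Inh-CGE it stood at 1127 and 1006 CPM in B6 and 776 and 744 CPM in D2 (log2 fold change -0.47 ± 0.11, adjusted p = 0.00708). Without B6 library 2, D2 library 2 or D2 library 3 the Inh-CGE call was lost (adjusted p = 0.0933, 0.25 and 0.299), with log2 fold changes of -0.38, -0.49 and -0.44. The remaining calls were small, -0.20 ± 0.06 in Exc-CA1-Fras1 (adjusted p = 0.0179) and -0.14 ± 0.04 in Exc-CA1-Galntl6 (adjusted p = 0.019).

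The D2 counts were made with a longer list of symbols than the B6 counts, and this list holds 5 predicted genes that lie inside Grm5 on its strand. These 5 held 5658 D2 counts, 3.3% of those of Grm5, and 0 B6 counts. With their counts added to Grm5, an alternative chosen after seeing the data, the Exc-CA1-Fras1 and Exc-CA1-Galntl6 calls were lost (log2 fold change -0.16 and -0.08, adjusted p = 0.0686 and 0.136). The first of these calls was also lost without B6 library 2 (-0.17, adjusted p = 0.159), and the other with DESeq2 (adjusted p = 0.0526) and without B6 library 3 (-0.11, adjusted p = 0.111) or D2 library 3 (-0.13, adjusted p = 0.0593). For Grm3, Grm7 and Grm8 the inner genes held 1.05%, 0.0329% and 0.37% of the D2 counts of the receptor gene, and adding them changed no call of these 3 genes.

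Grm2 was called in 1 of 8 tested cell types, Exc-Gpc6, the type where it was highest. Both D2 libraries (55.6 and 62.3 CPM) lay above both B6 libraries (39.9 and 36.8 CPM), with a log2 fold change of 0.65 ± 0.17 (adjusted p = 0.00483) from 69 to 128 counts a library. The call was lost with DESeq2 (adjusted p = 0.251) and without B6 library 3 (0.59, adjusted p = 0.0517). In the other 6 tested excitatory types the fitted log2 fold changes were 0.24 to 0.70 and did not pass the test.

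Of the 3 calls higher in D2, Grm3 in NN-Astro was the one made under every alternative. Both D2 libraries (1681 and 1817 CPM, from 5507 and 6322 counts) lay above both B6 libraries (1158 and 1207 CPM, from 3492 and 3761 counts). The log2 fold change was 0.57 ± 0.09 (adjusted p = 1.27e-06), and over the 10 alternatives it ran from 0.52 to 0.64 and was called in each. In NN-ODC, the other type with high Grm3, the D2 libraries lay below the B6 libraries but the difference did not pass the test (log2 fold change -0.17 ± 0.10, adjusted p = 0.286). Astrocyte markers did not move with the rise: their summed level was 3172 and 2859 CPM in B6 and 3111 and 3336 CPM in D2, the strains overlapped, and 0 of the 4 markers was called.

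Outside astrocytes, all 16 fitted log2 fold changes of Grm3 were below 0, and 7 of them were called, 5 of these in neurons. In Exc-ENT it stood at 478 and 509 CPM in B6 and 390 and 418 CPM in D2 (log2 fold change -0.27 ± 0.08, adjusted p = 0.011), a call lost without B6 library 3 or D2 library 2 (-0.22 and -0.21, adjusted p = 0.097 and 0.136). In Inh-MGE the values were 200 and 191 CPM in B6 and 161 and 138 CPM in D2 (-0.37 ± 0.11, adjusted p = 0.0246), lost with DESeq2 (adjusted p = 0.0895) and without D2 library 3 (-0.27, adjusted p = 0.315). The log2 fold changes in Inh-CGE (-0.45 ± 0.14), Exc-CA3 (-0.41 ± 0.14) and Exc-CA1-Galntl6 (-0.22 ± 0.07) passed with adjusted p = 0.0312, 0.0354 and 0.0278. None of these 3 was called by DESeq2 (adjusted p = 0.322, 0.231 and 0.137). Leaving out a library ended them too: any of the 4 in Inh-CGE (log2 fold changes -0.52 to -0.39), B6 library 2 or D2 library 2 in Exc-CA3 (-0.32 and -0.20, against -0.63 without D2 library 3), and D2 library 2 or 3 in Exc-CA1-Galntl6 (-0.20 and -0.24).

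Oligodendrocyte markers were lower in D2 both in these neurons and in some where Grm3 was not called. The summed level of the 4 markers in Exc-ENT was 126 and 132 CPM in B6 and 69.9 and 72.3 CPM in D2, with 3 of 4 called lower. It was also lower in D2 in Exc-CA3 (117 and 113 against 72.4 and 71.5 CPM, 3 of 4 called), Exc-CA1-Galntl6 (147 and 153 against 103 and 90.2 CPM, 3 of 4), Inh-CGE (122 and 107 against 63.7 and 75.8 CPM, 2 of 4) and Inh-MGE (98.2 and 102 against 82.7 and 81.7 CPM, 1 of 4). Where Grm3 was not called, the sum fell in Exc-Gpc6 (185 and 194 against 114 and 113 CPM, Grm3 log2 fold change -0.02). The same held in Exc-CA1-Fras1 (163 and 172 against 103 and 106 CPM, Grm3 -0.10) and Exc-DG (217 and 218 against 159 and 144 CPM, Grm3 -0.04). In Inh-Lamp5 the strains overlapped (92.5 and 119 against 52.8 and 109 CPM, Grm3 -0.35). None of the 4 markers was at 0 in all libraries of these types. Grm3 is high in oligodendrocytes, and the part of such transcripts in the lower Grm3 of neurons was not tested.

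In the glia where Grm3 was scarce it was also lower in D2. Oligodendrocyte precursors held 44.6 and 55.1 CPM in B6 and 29.6 and 24.9 CPM in D2 (log2 fold change -0.85 ± 0.23, adjusted p = 0.0025), and microglia 29.9 and 39.2 CPM in B6 and 17.3 and 6.73 CPM in D2 (-1.58 ± 0.43, adjusted p = 0.0244). The strains did not overlap in either type. The microglial value rests on 5 to 38 counts a library. Both calls were lost with DESeq2 (adjusted p = 0.27 and 0.695) and without B6 library 3 (log2 fold change -0.69 and -1.34) or D2 library 3 (-0.71 and -0.95).

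**Figure D3:**
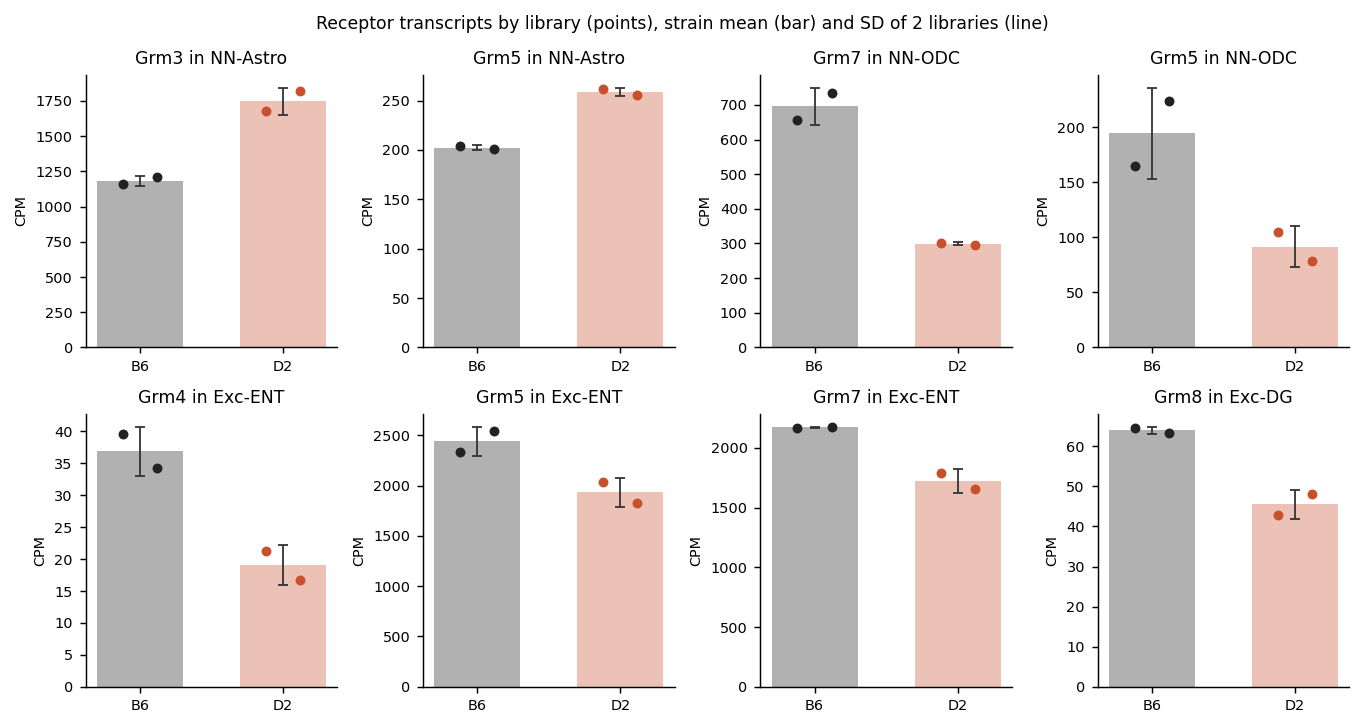
Each panel plots CPM on the vertical axis for 1 receptor gene in 1 cell type, with bars for the mean of 2 libraries, lines for its SD and points for the libraries (black B6, orange D2). The D2 points lie above the B6 points for Grm3 and Grm5 in NN-Astro and below them in the other 6 panels.

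Grm4 was called in 1 of 10 tested cell types, Exc-ENT. The B6 libraries held 39.6 and 34.2 CPM and the D2 libraries 21.3 and 16.8 CPM, so that D2 was at 0.532 times the B6 level (log2 fold change -0.91 ± 0.17, adjusted p = 4.28e-05). The strains did not overlap, and over the 10 alternatives the log2 fold change ran from -1.10 to -0.77 and was called in each. Exc-Gpc6, where Grm4 is about as abundant, held 37.6 and 37.8 CPM in B6 and 34.7 and 34.3 CPM in D2 (-0.09 ± 0.19, adjusted p = 0.82). In Exc-DG (0.68 ± 0.29) and Exc-CA1-Galntl6 (0.70 ± 0.29) the fitted values were above 0 and did not pass (adjusted p = 0.0867 and 0.0748), from 20 to 35 counts a library.

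Grm7 was called lower in 8 of 17 cell types and higher in none of them. The firmest difference was in NN-ODC, at 657 and 734 CPM in B6 and 302 and 296 CPM in D2 (log2 fold change -1.14 ± 0.11, adjusted p = 2.39e-08), called in all 10 alternatives. In Exc-ENT it stood at 2170 and 2176 CPM in B6 and 1792 and 1655 CPM in D2 (-0.31 ± 0.07, adjusted p = 0.00064), also called in all 10. The libraries of the strains did not overlap in either type.

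Among the other cell types that are not neurons, Grm7 was lower in NN-Astro, at 77.3 and 83.4 CPM in B6 and 58.3 and 37.1 CPM in D2 (log2 fold change -0.75 ± 0.15, adjusted p = 0.000115), a call lost without D2 library 3 (-0.45, adjusted p = 0.0633). In NN-MGC it stood at 198 and 122 CPM in B6 and 36.3 and 88.9 CPM in D2 (-1.24 ± 0.29, adjusted p = 0.0098), and in NN-VLMC at 342 and 340 CPM in B6 and 189 and 129 CPM in D2 (-1.05 ± 0.23, adjusted p = 0.00143). DESeq2 called neither (adjusted p = 0.0732 and 0.0721), and the NN-VLMC call was lost without D2 library 3 (-0.85, adjusted p = 0.0732). The size in NN-MGC depended on the D2 libraries, with -2.03 without D2 library 3 and -0.80 without D2 library 2.

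In neurons other than Exc-ENT the Grm7 calls were smaller or less firm. In Inh-CGE it stood at 786 and 1092 CPM in B6 and 597 and 674 CPM in D2 (log2 fold change -0.54 ± 0.14, adjusted p = 0.011), and the call was lost without B6 library 3 (-0.29), D2 library 2 (-0.45) or D2 library 3 (-0.64). In Exc-DG the log2 fold change was -0.20 ± 0.06 (adjusted p = 0.0217), lost without B6 library 2 (-0.18, adjusted p = 0.0705) or D2 library 3 (-0.14, adjusted p = 0.102). In Exc-CA3 it was -0.19 ± 0.07 (adjusted p = 0.0459), lost with DESeq2 (adjusted p = 0.0877) and without B6 library 2 (-0.13) or D2 library 3 (-0.16).

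Grm8 was called lower in 6 of 17 cell types. In Exc-DG it stood at 64.6 and 63.4 CPM in B6 and 42.9 and 48.1 CPM in D2 (log2 fold change -0.48 ± 0.10, adjusted p = 0.00114), with no overlap and with a call in all 10 alternatives. The summed level of the 3 dentate gyrus markers in Exc-DG was lower as well (420 and 437 against 324 and 325 CPM, 3 of 3 called), as was that of the 4 oligodendrocyte markers (217 and 218 against 159 and 144 CPM, 2 of 4 called), and their part in the Grm8 difference was not tested. In Exc-CA1-Fras1, a type with high Grm8, it stood at 1036 and 928 CPM in B6 and 813 and 802 CPM in D2 (-0.26 ± 0.07, adjusted p = 0.0106), a call lost without B6 library 2 (-0.18, adjusted p = 0.172). In Exc-ENT, the other such type, the D2 libraries lay below the B6 libraries and the difference did not pass (-0.07 ± 0.07, adjusted p = 0.572).

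The remaining Grm8 calls were less firm. Inh-CGE held 310 and 403 CPM in B6 and 223 and 252 CPM in D2 (log2 fold change -0.56 ± 0.14, adjusted p = 0.00639), lost without B6 library 3 (-0.37), D2 library 2 (-0.47) or D2 library 3 (-0.66). In Exc-CA3 (-0.32 ± 0.11, adjusted p = 0.0264) the call was lost with DESeq2 and without B6 library 2 (-0.33), B6 library 3 (-0.33) or D2 library 3 (-0.24). In NN-Astro (-0.80 ± 0.27, adjusted p = 0.0239) and NN-VLMC (-1.61 ± 0.48, adjusted p = 0.0255) the libraries held 29 to 64 and 1 to 27 counts. Both were lost with DESeq2 (adjusted p = 0.372 and 0.929) and without B6 library 3 (-0.45 and -1.65) or D2 library 3 (-0.61 and -1.05), and the NN-VLMC value was -3.93 without D2 library 2. The NN-Astro call was also lost when every gene with at least 1 count entered the fit (adjusted p = 0.0954).

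The summed level of neuronal markers in glia lay lower in D2 in some types, although most of the markers did not pass the test. For 25 neuronal markers it was 579 and 618 CPM in B6 and 567 and 502 CPM in D2 in NN-ODC, and it also lay lower in D2 in NN-Astro (509 and 452 against 395 and 372 CPM), NN-MGC (433 and 391 against 266 and 253 CPM) and NN-OPC (2515 and 2254 against 1997 and 2211 CPM). In NN-VLMC it was 404 and 512 CPM in B6 and 404 and 352 CPM in D2. Some of these sums rested on few markers. In NN-OPC the 3 caudal ganglionic eminence markers held a mean of 1677 of the 2244 CPM. In NN-ODC the 3 dentate gyrus markers held a mean of 198 of the 566 CPM. Of the 16 neuronal markers tested in NN-ODC 2 were called lower (8.93% of all genes were), of 19 in NN-Astro 5 lower (11.7%) and 1 higher, of 10 in NN-MGC 2 lower (5.12%), of 13 in NN-OPC 2 lower (7.3%) and 2 higher, and of 6 in NN-VLMC 1 lower (4.76%). The summed level of the 3 dentate gyrus markers in NN-ODC was higher in D2, at 174 and 193 CPM in B6 and 211 and 214 CPM in D2. Of the 2 of these markers tested there, 1 was called lower and 0 higher, so the sum does not stand for each marker. None of the 25 markers was at 0 in all 4 libraries of NN-Astro, NN-MGC or NN-OPC, while 1 was in NN-ODC and 2 were in NN-VLMC. Oligodendrocyte markers lay lower in D2 in NN-Astro (325 and 292 against 152 and 133 CPM, 4 of 4 called). In NN-MGC they did too (260 and 285 against 213 and 145 CPM, 2 of 3 called). In NN-OPC they lay higher (317 and 280 against 508 and 349 CPM), and in NN-VLMC the strains overlapped. Astrocyte markers lay lower in D2 in NN-MGC (281 and 247 against 187 and 167 CPM) and higher in NN-ODC and NN-VLMC. The part of all these markers in the lower Grm3, Grm5, Grm7 and Grm8 of these types was not tested. In NN-Astro, Grm3 and Grm5 were called higher in D2, and the part of these markers there was not tested either.

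The test of whether the strain difference is the same in every cell type used all 68 columns with library and cell type as terms. Of 21050 genes tested, 14.6% passed this F test, and so did 4 of the 6 receptor genes: Grm3 (adjusted p = 3.2e-07), Grm7 (9.01e-07), Grm5 (2.41e-05) and Grm4 (0.000507). Grm8 (adjusted p = 0.132) and Grm2 (0.734) did not pass. For Grm8 this turned on the setting, since it passed when every gene with at least 10 counts entered the fit (adjusted p = 1.41e-08) and without B6 library 2 (0.00212), B6 library 3 (2.35e-05) or D2 library 2 (0.000227). For Grm4 the call was lost without D2 library 3 (adjusted p = 0.15).

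Each cell type was then set against the mean of the other 16. The strain difference of Grm3 in NN-Astro exceeded that mean by 1.01 ± 0.11 on the log2 scale (adjusted p = 4.92e-11), and that of Grm5 in NN-Astro by 0.67 ± 0.14 (adjusted p = 0.000658), where 2.21% of all genes passed in this direction. In NN-ODC the differences of Grm7 and Grm5 were below the others by -0.87 ± 0.15 (adjusted p = 1.8e-05) and -0.86 ± 0.18 (adjusted p = 0.000497), against 1.62% of all genes. Grm5 in NN-VLMC (-0.98 ± 0.26, adjusted p = 0.03, against 0.513% of all genes) and Grm7 in NN-MGC (-0.92 ± 0.26, adjusted p = 0.0481, against 0.641%) were also below. Grm4 in Exc-DG lay above the others by 1.62 ± 0.45 (adjusted p = 0.0351, against 1.05%), but the mean it was set against includes types such as CR-CR, with 3 counts in each B6 library and 0 in each D2 library. For the same reason this contrast says nothing of Grm4 in Exc-ENT. In Exc-ENT the contrasts of Grm5 (-0.07 ± 0.12) and Grm7 (0.07 ± 0.13) did not pass. The lower Grm5 and Grm7 of Exc-ENT were thus not shown to differ from the other types.

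Open chromatin at the gene starts gave a readout that the choice of genes did not use. In all, 12 deposited peaks overlapped a window of 1000 bases either side of an annotated start of the 6 genes, over 15 cell types (CR-CR and NN-VLMC were not analysed in this assay). The strongest of each gene were chr7:87583856-87585095 for Grm5, chr9:106655507-106657857 for Grm2, chr5:9724263-9726666 for Grm3, chr17:27511665-27513908 for Grm4, chr6:110644876-110647849 for Grm7 and chr6:28132943-28136185 for Grm8. Across the 15 cell types, the mean accessibility of these peaks and the mean RNA level, both as log2(CPM + 1), had a Pearson r of 0.92 for Grm8, 0.90 for Grm7, 0.89 for Grm5, 0.88 for Grm4, 0.79 for Grm3 and 0.74 for Grm2. These values are descriptions over 15 points that share libraries.

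The start of Grm7 was nearly closed in astrocytes, at 6.97 and 0 CPM in B6 and 5.04 and 2.14 CPM in D2, where it had the lowest RNA level. It was also low in Inh-Lamp5, at 20.1 and 21.8 CPM in B6 and 18.9 and 27.2 CPM in D2, while Inh-CGE and Inh-MGE held means of 46.5 and 54.2 CPM and Exc-Gpc6, the highest, 77.1 CPM. For Grm8 the 3 most open types, Exc-Gpc6 (58.8 CPM), Exc-ENT (57.4 CPM) and Exc-CA1-Fras1 (47.0 CPM), were those with the highest RNA, and Exc-CA1-Galntl6 held 20.8 CPM. The start of Grm5 was at a mean of 17.7 to 27.3 CPM in all neuronal types, at 11.7 CPM in oligodendrocyte precursors and at 6.05 to 7.70 CPM in the other glia. With the raw column total, oligodendrocyte precursors held 18.6 CPM at the start of Grm5 and ranked 8 of 15, above Exc-DG (18.4 CPM), Exc-CA1-Camk2d (17.9 CPM), Exc-CA1-Galntl6 (16.5 CPM) and Exc-CA3 (15.8 CPM), so the gap between them and neurons depended on the scaling.

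For Grm3 the order of the start peak depended on the scaling too. With TMM it was highest in Exc-ENT (58.2 CPM) and Exc-Gpc6 (56.4 CPM), followed by NN-Astro (43.4 CPM), and with the raw column total it was highest in NN-Astro (60.0 CPM) and NN-ODC (47.7 CPM). Glia were few in this assay, with 33 to 65 astrocyte nuclei a library. In NN-Astro the Grm3 peak stood at 27.9 and 53.2 CPM in B6 and 45.4 and 47.1 CPM in D2, so the strains overlapped where the RNA differed. In Exc-ENT, where Grm4 RNA was lower in D2, the strongest Grm4 peak also overlapped between strains, at 35.0 and 43.6 CPM in B6 and 37.6 and 39.7 CPM in D2. At the start of Grm7 in NN-ODC the strains overlapped as well, at 20.6 and 30.4 CPM in B6 and 17.9 and 26.7 CPM in D2. Over 15 cell types, the strongest peak lay higher in D2 without overlap in 8 for Grm5, 7 for Grm3 and 7 for Grm7. For Grm8, Grm2 and Grm4 this held in 5, 3 and 2 types. D2 lay lower without overlap in 1, 2, 0, 1, 3 and 3 types, in the same order. In Exc-ENT, where Grm5 RNA was lower, its peak stood at 24.5 and 24.8 CPM in B6 and 26.7 and 29.8 CPM in D2. These differences were not tested or set against all peaks.

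Grm2, Grm4 and Grm5 have further start peaks. Those of Grm5, chr7:87601613-87601905 and chr7:87602377-87603149, were weak, with highest means of 1.23 CPM (NN-ODC) and 2.20 CPM (Inh-MGE). A weak Grm4 peak, chr17:27514177-27514378, held 3.67 and 5.90 CPM in B6 and 2.74 and 3.50 CPM in D2 in Exc-ENT. That difference rests on 15 to 38 counts a library and was not tested. The peak chr9:106645508-106646297, inside Grm2, was highest in Exc-Gpc6 (27.3 CPM), Exc-DG (17.1 CPM) and Exc-Cdh12 (14.7 CPM), the 3 types with the most Grm2 RNA. The peak chr17:27520082-27521139 of Grm4 was highest in Exc-Gpc6 (32.0 CPM) and Exc-Cdh12 (16.1 CPM), the 2 types with the most Grm4 RNA, while the stronger Grm4 peak was highest in Inh-CGE (43.8 CPM).

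**Figure D4:**
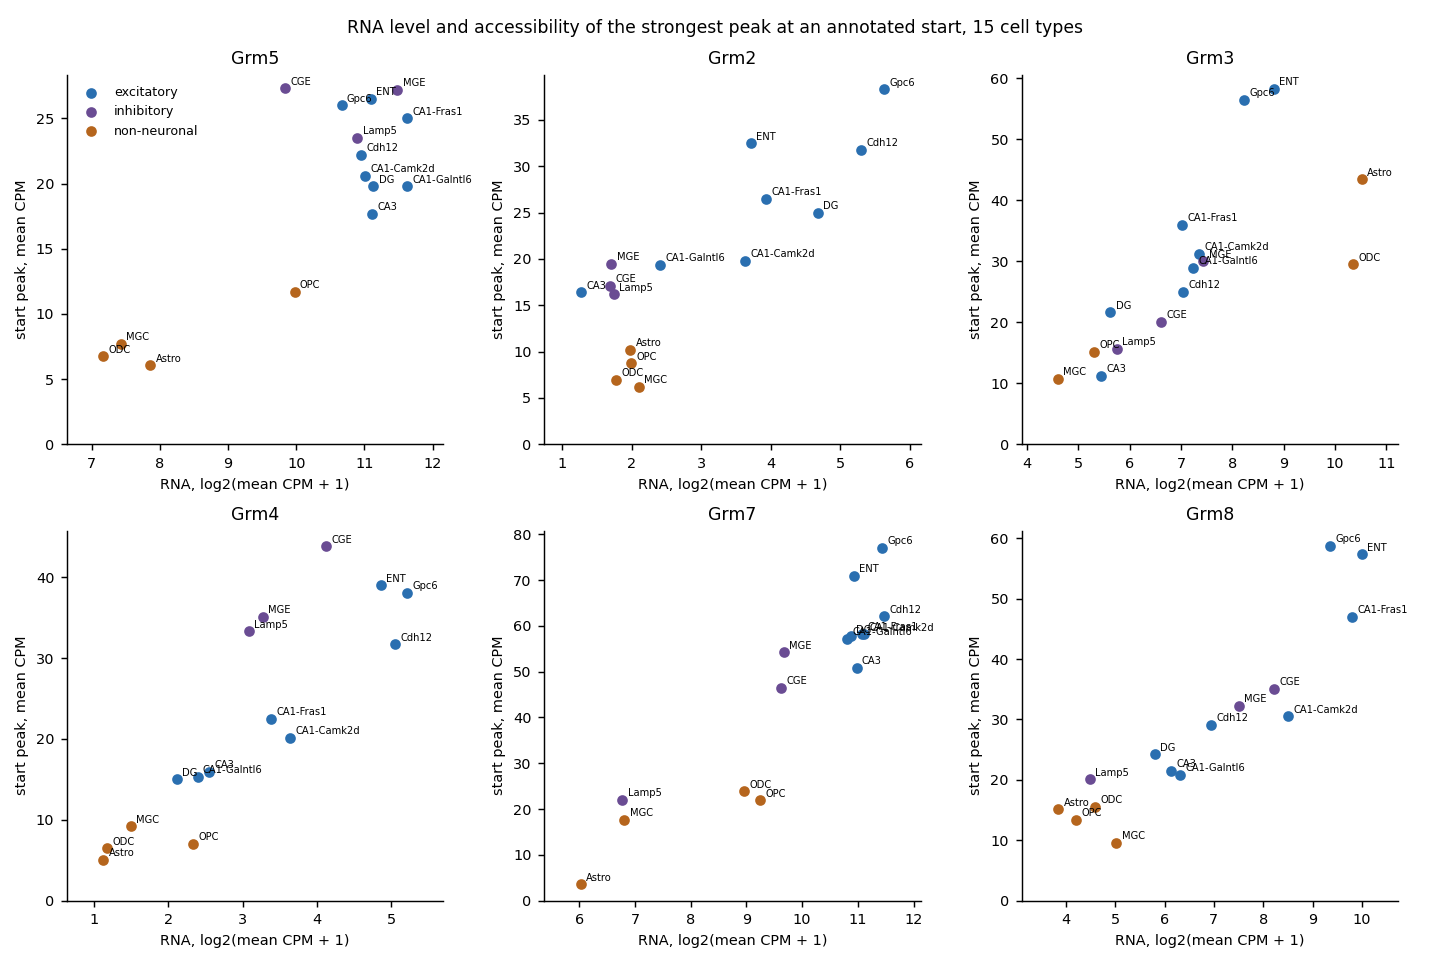
Each panel plots 1 receptor gene over 15 cell types, with the mean RNA level as log2(mean CPM + 1) on the horizontal axis and the mean CPM of its strongest start peak in snATAC-seq on the vertical axis, colored by class. NN-Astro sits at the lower left for Grm7 (3.54 CPM), and Exc-Gpc6, Exc-ENT and Exc-CA1-Fras1 sit apart at the upper right for Grm8.

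The other genes of metabotropic glutamate signalling were read from a list of 31 symbols in the table. They gave 457 tested pairs of gene and cell type, of which 21 were called higher and 79 lower in D2, 21.9% in all against 22.1% over all genes and cell types, where 12.9% were higher and 9.25% lower. Scaffolds and binding proteins had 33 of 132 pairs lower and 3 higher, the Gq route 22 of 98 lower and 4 higher, and the Gi/o route 11 of 98 lower and 7 higher. The shares over all genes depended on the filter. When a gene had to have counts in both strains, the list had 19 calls higher and 71 lower. Calls over all genes then went from 28312 to 12664 higher and from 20308 to 16983 lower. Grm6 had 2 counts in the whole table and was not tested.

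The 6 genes of this list called in the most cell types were Itpr1, Pick1, Shank2, Kcnj9, Shank1 and Plcb1. Itpr1, the calcium channel opened by inositol trisphosphate downstream of group I receptors, was lower in 9 and higher in 2 types. Its largest called decrease was in Exc-DG, from 243 and 224 CPM in B6 to 82.5 and 75.7 CPM in D2 (log2 fold change -1.55 ± 0.08, adjusted p = 1.81e-09). Plcb1, the phospholipase C between Gq and Itpr1, was lower in 7 types, with 876 and 879 CPM in B6 and 681 and 665 CPM in D2 in Exc-ENT (-0.36 ± 0.07, adjusted p = 0.000203). Shank1 and Shank2, postsynaptic scaffolds that reach Grm5 through Homer proteins, were lower in 7 and 8 types, with called log2 fold changes down to -0.85 (NN-ODC) and -1.64 (NN-MGC). Pick1, a PDZ protein that binds Grm7, was lower in 9 of 16 types, and its fitted log2 fold changes over all 16 ran from -1.26 to -0.21. Kcnj9, a subunit of the potassium channels that Gi/o receptors open, was the exception, higher in 7 of 15 types, with 42.6 and 42.3 CPM in B6 and 56.6 and 65.2 CPM in D2 in Exc-ENT (0.54 ± 0.13, adjusted p = 0.001).

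Likeness over cell types was measured as Pearson r of log2(mean CPM + 1) over the 17 types, among 14772 genes. Grm5 was most like Unc80 (r = 0.968), Rnf157 (0.966) and Cd163l1 (0.960), and Unc80 kept a high r within each library (0.953 to 0.964). Grm4 was most like Dpp10 (0.920), Vopp1 (0.902) and Pitpnm3 (0.901), and Grm8 like Pcsk1 (0.889), 1700016P03Rik (0.882) and D5Ertd615e (0.876). Grm3 was most like Gm48740 (0.874), Arap2 (0.844) and Srebf2 (0.820). Grm7 was most like Mrpl3 (0.938), Pcsk2os1 (0.929) and Pcsk2os2 (0.909), although r with Mrpl3 within a library was as low as 0.647. Grm2 was most like its own overlapping antisense gene Gm28111 (0.947), then Nek10 (0.879) and Dusp14 (0.876). These are descriptions over 17 points that share libraries.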

How the data were processed

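The snRNA-seq and snATAC-seq values were counts, deposited by the authors summed for every cell type and library, with no normalization. Per the labels and the study's methods, the authors used Cell Ranger 6.0.2 (introns retained) and Cell Ranger ATAC 2.0.0 on mm10, with strain variants placed into the genome for D2, and clustered nuclei with Seurat 4.0.5 after doublet removal. Both strains are in the 68 snRNA-seq and 60 snATAC-seq columns, and methylation data of the series were not used here. Columns number libraries 2 and 3 while labels number replicates from 1, so which replicate a library is was not established, and only the replicate block uses the numbers.

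D2 was compared with B6 in each cell type with edgeR 4.0.16 (R 4.3.3; quasi-likelihood test, TMM, filterByExpr, Benjamini-Hochberg adjustment over all genes tested). Interaction tests used all columns with library, cell type and their strain terms. Errors are SE of the log2 fold change. The labels give 2 replicates per strain, an exact permutation test of which cannot go below p = 0.33, and p-values measure the spread between these libraries. Alternatives were DESeq2 1.42.0, RLE scaling, other filters, a replicate block, leaving out each library, and added inner genes. Data were simulated with the same spread between libraries for every gene, independent columns and changed genes above a floor of mean counts. In these data, edgeR recovered 80% of 2-fold and 95% of 4-fold changes in NN-Astro, and 43% and 84% in the interaction test. Changes under 2-fold were not simulated, so these rates do not carry over to the smaller calls.

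The members and lists were chosen with earlier results of these data known. Named genes were the 6 receptors, the 6 pathway genes called in the most cell types, and the 3 genes most like each receptor among those with at least 10 CPM in a cell type.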

Additional observations from a re-analysis of the deposited data

Results flagged for a closer look

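The receptor genes below stood out because a test of the difference itself found that the strain effect was not the same in every cell type. In the F test over 17 cell types this held for Grm3 (adjusted p = 3.2e-07), Grm7 (adjusted p = 9.01e-07), Grm5 (adjusted p = 2.41e-05) and Grm4 (adjusted p = 0.000507, and 0.15 without D2 library 3), by edgeR. Against the mean of the other cell types, the log2 difference of D2 and B6 was higher by 1.01 for Grm3 and by 0.67 for Grm5 in NN-Astro, and by 1.62 for Grm4 in Exc-DG, where the libraries held 21 to 35 counts. It was below that mean, with values of -0.86 for Grm5 and -0.87 for Grm7 in NN-ODC, -0.98 for Grm5 in NN-VLMC and -0.92 for Grm7 in NN-MGC. For Grm4 the mean includes nearly empty types such as CR-CR, with 3 counts in each B6 library and 0 in each D2 library. Within Exc-DG alone, Grm4 did not pass edgeR (0.68 ± 0.29, adjusted p = 0.0867).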

How the results depend on the processing

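Of the 31 calls among receptor genes, 7 were made under all 10 alternatives and 24 were lost under at least 1, with no change of direction among the 31. DESeq2 made 16 calls, 14 of them lower in D2. Leaving out a library gave 16 (without D2 library 3) to 30 calls, 2 to 5 higher and 14 (without D2 library 3) to 26 lower, with 18 lower without B6 library 3. For the other pathway genes, 100 calls became 40 with DESeq2 (4 higher, 36 lower), and leaving out a library gave 56 (without D2 library 3) to 102 calls, 13 to 24 higher and 43 to 78 lower. The cause was not tested. With the replicate block, 32 receptor calls were made (3 higher, 29 lower) and the F test again passed 4 of 6 genes. Same-numbered libraries correlated at -0.119 to 0.0588 in their deviations, and 2 numbers do not establish a pairing. From raw column totals, Grm4 in Exc-Gpc6 was 33.7 CPM (36.1 with TMM) and Grm5 in Exc-CA1-Fras1 2815 CPM (3154), and the start peaks of Grm2, Grm3, Grm7 and Grm8 were 29.0, 46.3, 58.3 and 44.5 CPM (38.3, 58.2, 77.1 and 58.8 with TMM). Adding inner genes, chosen after seeing the data, gave 29 calls. Depth limits Grm2 and Grm4, of which 16 pairs were too low to test.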

Other observations

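At the start of Grm8 in NN-Astro, the peak held 5.22 and 9.55 CPM in B6 and 18.9 and 26.8 CPM in D2, so the D2 libraries lay above the B6 libraries, while Grm8 RNA in NN-Astro was 13.3 and 20.5 CPM in B6 and 11 and 8.34 CPM in D2. The peak values rest on 3 to 25 counts a library, and the difference was not tested.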
